A study of Mus musculus with 26 samples.

Results

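The 10 ribosomal RNA (rRNA) entries of a small RNA count table from mouse hippocampus were examined here, in 26 libraries. They were taken as every row that carries neither a miRBase name nor a tRNA database name, which left 10 of 1360 rows. The other rows were 1054 miRNA, 103 tRNA and 193 tRNA end entries. The rRNA rows cover 28S, 18S, 5.8S, 45S, 5S and 4.5S. For 28S, 18S, 5.8S and 45S the table holds 2 rows each, 1 for fragments that matched the mouse genome (called matched) and 1 for fragments that did not (called unmatched), so that 6 rows are matched and 4 are unmatched. In the table's own names, 28S matched is 28S-rRNA_Match_Genome and 28S unmatched is 28S-rRNA_Unmatch_Genome, and likewise 5.8S-rRNA_Match_Genome, 5.8S-rRNA_Unmatch_Genome, 18S-rRNA_Match_Genome, 45S-rRNA_Match_Genome and 4.5S-rRNA_Match_Genome.

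Adult male C57BL/6J mice, 2 to 3 months old, either stayed in the homecage (control) or swam for 6 min in water at 18 °C, an acute stress, and tissue was collected 45 mins after the swim began. The dorsal hippocampus (dHC) and the ventral hippocampus (vHC) of both hemispheres were sequenced apart. There were 8 vHC control, 6 vHC swim, 6 dHC control and 6 dHC swim libraries, all from the inbred C57BL/6J strain. The labels place each library in 1 of 3 dated blocks of 10, 8 and 8 libraries (block 1, block 2 and block 3), and every block held all 4 groups. The labels do not say what the date of a block stands for, nor whether a dHC and a vHC library came from the same mouse. The study's methods report library preparation in 3 batches that mixed both regions and both treatments, but do not tie these batches to the dated blocks.

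Ribosomes are built from a small subunit around the 18S rRNA and a large subunit around the 28S, 5.8S and 5S rRNAs. RNA polymerase I transcribes the 45S precursor from tandem repeats of ribosomal DNA, and cleavage and trimming of this precursor release 18S, 5.8S and 28S. 5S is made separately by RNA polymerase III from its own gene clusters. The rodent RNAs named 4.5S are small polymerase III transcripts that are not part of the ribosome, although the table lists this entry among the rRNAs. Ribosomal DNA repeats are only partly represented in assembled mouse genomes. A small RNA library ligates short RNAs, so the counts are of short rRNA pieces and not of intact rRNA.

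The table names the rRNA a fragment belongs to but not its position, so the start of 18S, the RNA of the small subunit, is shown for orientation, in lower case throughout because no stretch of it is known to be the one counted. It is the first 150 of 1849 bases of an 18S-like copy in the GENCODE annotation of GRCm38, at chr17:39846353-39846502 on the plus strand. The copy lies opposite the annotated minus-strand transcript CT010467.1 and was read as the reverse complement of it.
18S, first 150 bases: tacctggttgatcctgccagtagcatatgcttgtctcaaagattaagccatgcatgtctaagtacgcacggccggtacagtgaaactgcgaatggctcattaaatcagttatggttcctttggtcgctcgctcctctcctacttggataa

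Library totals, summed over miRNA, tRNA and rRNA entries, ran from 502251 counts in dHC control library 24 to 5380780, and the rRNA counts from 21401 to 366006. The miRNA markers of neurons (mir-124, mir-9, mir-128 and mir-138) were all detected. Their summed level was 160612 to 230066 CPM (counts relative to the library total) over the 26 libraries. The summed markers of blood (409.2 to 837.5 CPM), of choroid plexus and ciliated cells (1482 to 5131 CPM) and of microglia and leukocytes (121.5 to 453.7 CPM) were far lower. The liver marker mir-122 stayed between 3.98 and 18.2 CPM. The 2 oligodendrocyte miRNAs, mir-219a and mir-338, summed to 4274 to 6719 CPM in the dHC control libraries and 4287 to 6236 CPM in the dHC swim libraries, against 3111 to 4491 CPM in vHC control and 3244 to 4398 CPM in vHC swim. Their part in the differences between regions was not tested. These marker levels were not scaled by TMM factors. The levels of rRNA entries given below are normalized CPM, which are scaled by TMM factors.

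rRNA fragments made up 5.26% ± 1.05 (SD, n = 26) of the counts of a library, with a range of 3.48% to 7.03%. The 28S rRNA, the main RNA of the large subunit, gave most of them. In share of the rRNA counts, 28S reached 79.9% ± 2.16 (SD, n = 26), 5.8S 13.7% ± 2.37, 18S 3.64% ± 0.517, 45S 1.49% ± 0.225, 5S 0.825% ± 0.379 and 4.5S 0.439% ± 0.140. Over the 26 libraries, the lowest 28S share (75.4%) stayed far above the highest 5.8S share (18.98%), and the lowest 5.8S share (10.4%) above the highest 18S share (4.58%). The shares of 45S (1.19% to 2.00%) and 5S (0.372% to 1.70%) overlapped over the libraries, as did those of 5S and 4.5S (0.191% to 0.830%).

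These shares are per molecule named and not per length, and no levels per length were compared.

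The species differed in how much of their signal matched the genome. Of the 5.8S counts, 93.2% ± 2.95 (SD, n = 26) were unmatched, and of the 45S counts 73.9% ± 6.28. Of the 28S counts only 9.65% ± 1.95 were unmatched, and of the 18S counts 1.62% ± 0.198. Over all 26 libraries, the ranges of the 4 species were apart, with 5.8S between 85.3% and 96.6%, 45S between 61.3% and 82.5%, 28S between 6.46% and 13.02% and 18S between 1.203% and 1.953%. The 10 rows thus ranged from 28S matched, with 16236 to 264564 counts per library, to 18S unmatched, with 13 to 277. All 10 passed the filter on low counts and none was at 0 in any library.

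**Figure D1:**
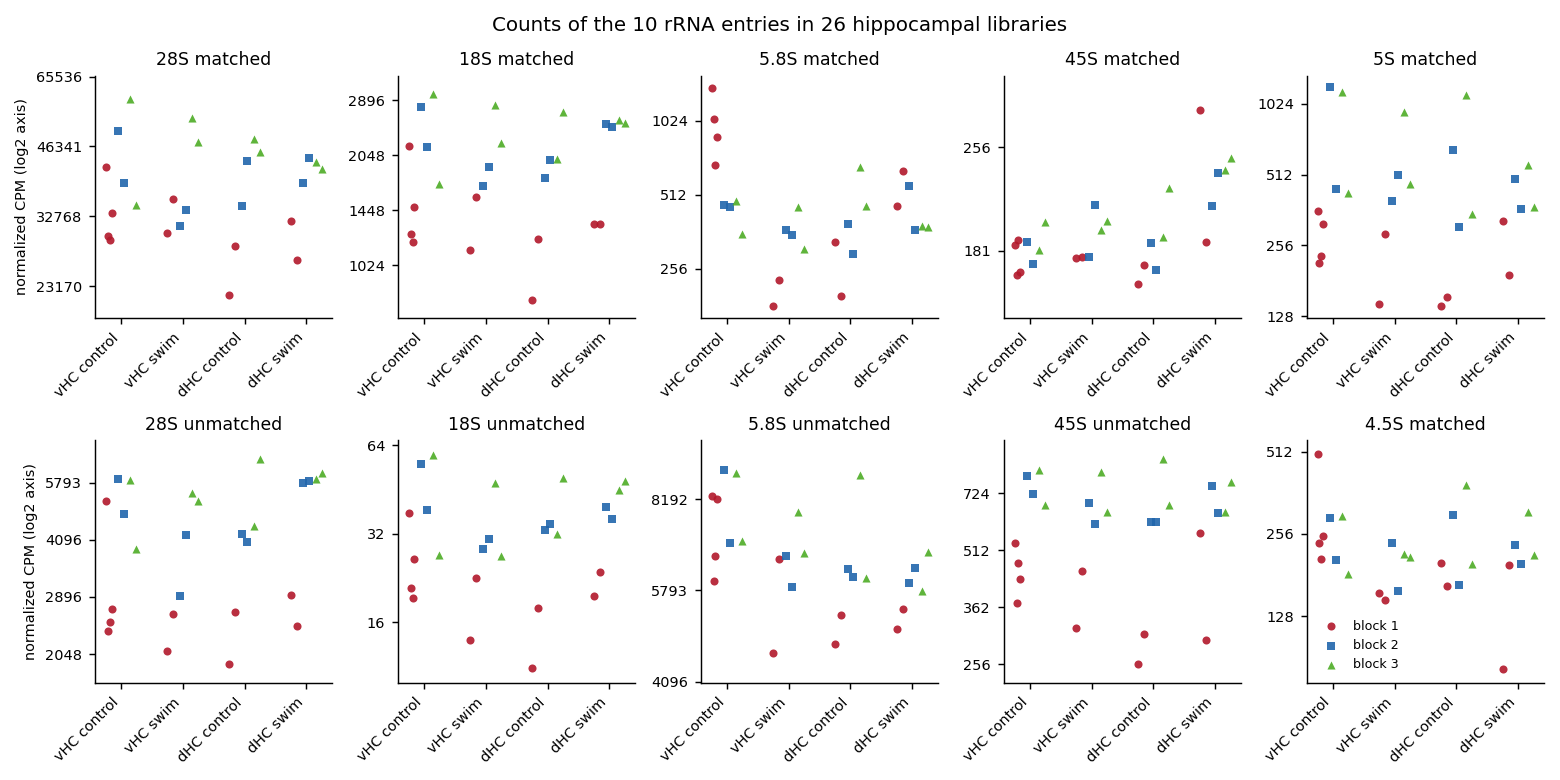
Normalized CPM of each rRNA entry (log2 axis, its own scale per panel) in the 4 groups; every point is 1 library, coloured and shaped by block. The block 1 points of 45S unmatched, 256.6 to 568.4 CPM, lie below all points of blocks 2 and 3, and those of 5.8S matched in vHC control lie above all other vHC control points.

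The comparison of swim with control asks whether short rRNA pieces changed in dHC or vHC 45 mins after the onset of stress. The rRNA share of counts was 5.39% ± 0.980 (SD, n = 8) in vHC control and 5.14% ± 0.933 (n = 6) in vHC swim, and 5.05% ± 1.27 (n = 6) in dHC control and 5.43% ± 1.26 (n = 6) in dHC swim. All 4 ranges overlapped. With edgeR's quasi-likelihood test across all 619 entries that passed the filter, 0 of the 10 rRNA entries had an adjusted p under 0.05 when stress and its interaction with region were tested together, and 0 of 619 entries did (0%). The same held for stress in vHC (0 of 10 rRNA entries, 0% of all entries), for stress in dHC (0 of 10, 0%) and for the interaction (0 of 10, 0%). At an unadjusted p under 0.05 there were 3, 3, 2 and 2 of the 10 rRNA entries in these 4 tests, against 24, 44, 25 and 24 of all 619 entries. The DESeq2 test, for which the share over all entries was not recorded, called 1 rRNA entry in vHC and 0 in the other 3 tests.

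That entry was 5.8S matched, the genome-matched pieces of the short large-subunit RNA that pairs with 28S. Its level in vHC control was 354 to 1392 CPM with a median of 579.9 (n = 8), and in vHC swim 180.7 to 458.1 CPM with a median of 328.7 (n = 6), so the groups overlapped. In dHC it was 198.0 to 660.7 CPM with a median of 358.8 in control and 369.2 to 637.8 CPM with a median of 421.9 after swim (n = 6 each). The log2 difference of swim from control was -1.19 in vHC (SE 0.27, 95% interval -1.75 to -0.63, edgeR adjusted p = 0.161) and 0.29 in dHC (SE 0.29, adjusted p = 0.985). The difference between these, the interaction, was 1.48 on the log2 scale (SE 0.40, adjusted p = 0.392).

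The vHC difference of 5.8S matched was largest in block 1. There, the 4 vHC control libraries held 2.30%, 2.50%, 1.64% and 1.84% of their rRNA counts as 5.8S matched, and the 2 vHC swim libraries 0.465% and 0.481%. The 2 controls of block 2 held 0.658% and 0.839% and its 2 swim libraries 0.832% and 0.735%. For block 3 these values were 0.608% and 0.722% in controls and 0.636% and 0.485% after swim. The 4 block 1 controls were above all other vHC libraries, whereas in blocks 2 and 3 the shares of control and swim libraries overlapped. In CPM, both block 2 swim libraries (369.2 and 350.4 CPM) were also below both block 2 controls (466.6 and 457.1 CPM), and in block 3 the groups overlapped. In log2 CPM the swim libraries differed from the controls by -2.24, -0.36 and -0.14 within blocks 1, 2 and 3. In dHC, the same difference was 1.09, 0.42 and -0.54, so it changed sign between blocks. With block 1 left out, the fitted difference in vHC was -0.13 (adjusted p = 0.999), the one in dHC -0.06 and the interaction 0.08. By the DESeq2 test the adjusted p in vHC was 0.00748, and without vHC control library 31, which lies in block 3, the edgeR test called the entry as well (1 of 10 rRNA entries). For that fit too, the share over all entries was not recorded.

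**Figure D2:**
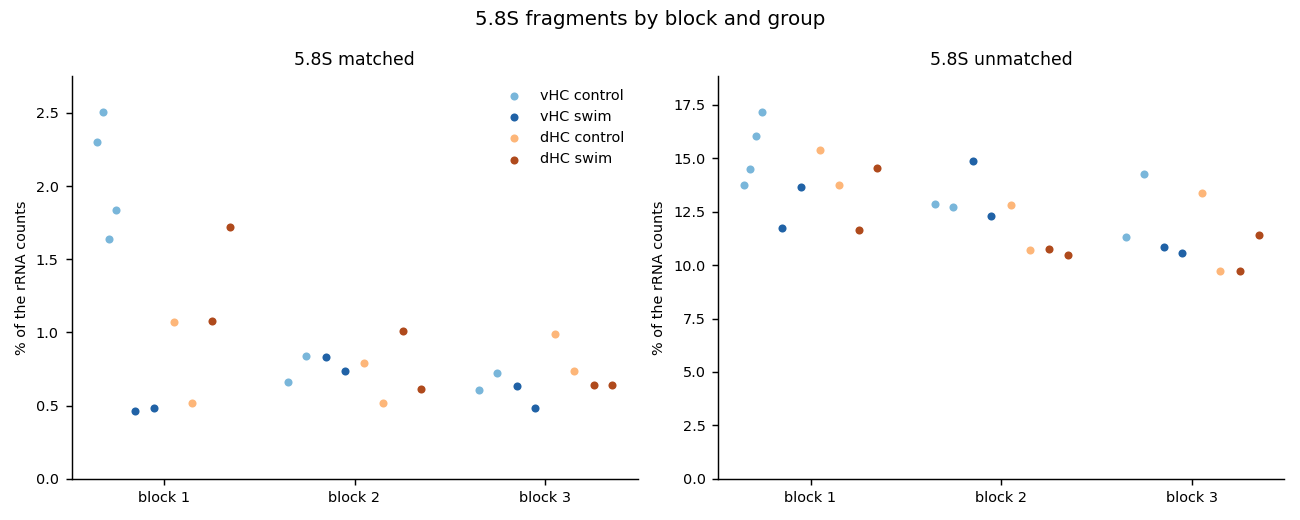
Share of 5.8S matched (left) and 5.8S unmatched (right) in the rRNA counts of each library, as a percentage from 0, by block; each point is 1 library and colours are the 4 groups. In block 1 the vHC controls hold 1.64% to 2.50% of rRNA counts as 5.8S matched, above the other libraries of that group, while the points of blocks 2 and 3 lie at 1.01% or below.

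The matched pieces of 45S, which can come from the spacers of the precursor as well as from its mature parts, had the smallest unadjusted p of the 10 entries in dHC. Their level was 161.8 to 223.1 CPM with a median of 179.4 in dHC control and 186.1 to 290.7 CPM with a median of 236.2 in dHC swim (n = 6 each). The ranges overlapped, but within each of the 3 blocks both swim libraries were above both controls, by 0.48, 0.32 and 0.24 on the log2 scale in blocks 1, 2 and 3. The fitted difference was 0.33 (SE 0.10, unadjusted p = 0.00253), and its edgeR adjusted p over the 619 entries was 0.976. In vHC the level was 166.7 to 199.3 CPM in control and 176.8 to 210.9 CPM after swim, with a fitted difference of 0.06 (SE 0.09, adjusted p = 0.813). The test of the difference between the regions gave 0.27 (SE 0.14, adjusted p = 0.880).

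None of the remaining entries came near the threshold. 28S matched, the most abundant one, had a log2 difference of -0.003 in vHC (95% interval -0.23 to 0.22) and 0.04 in dHC (95% interval -0.20 to 0.27). 18S matched, from the small subunit, had -0.01 in vHC (95% interval -0.24 to 0.23) and 0.28 in dHC (95% interval 0.03 to 0.54, adjusted p = 0.976). 5.8S unmatched had -0.26 in vHC (SE 0.10, adjusted p = 0.623) and 4.5S -0.53 (SE 0.23, adjusted p = 0.623), and in dHC they had -0.08 and -0.21. 5S had the widest error of the entries besides 5.8S matched, with -0.14 in vHC (95% interval -0.68 to 0.40) and -0.07 in dHC (95% interval -0.65 to 0.50). The median log2 difference of the 10 rRNA entries was -0.12 in vHC and 0.23 in dHC, beside -0.05 and 0.01 over all 619 entries. Of the tRNA entries, the other RNAs of translation in the table, 0 of 80 whole tRNAs and 0 of 68 tRNA ends were called in either region.

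**Figure D3:**
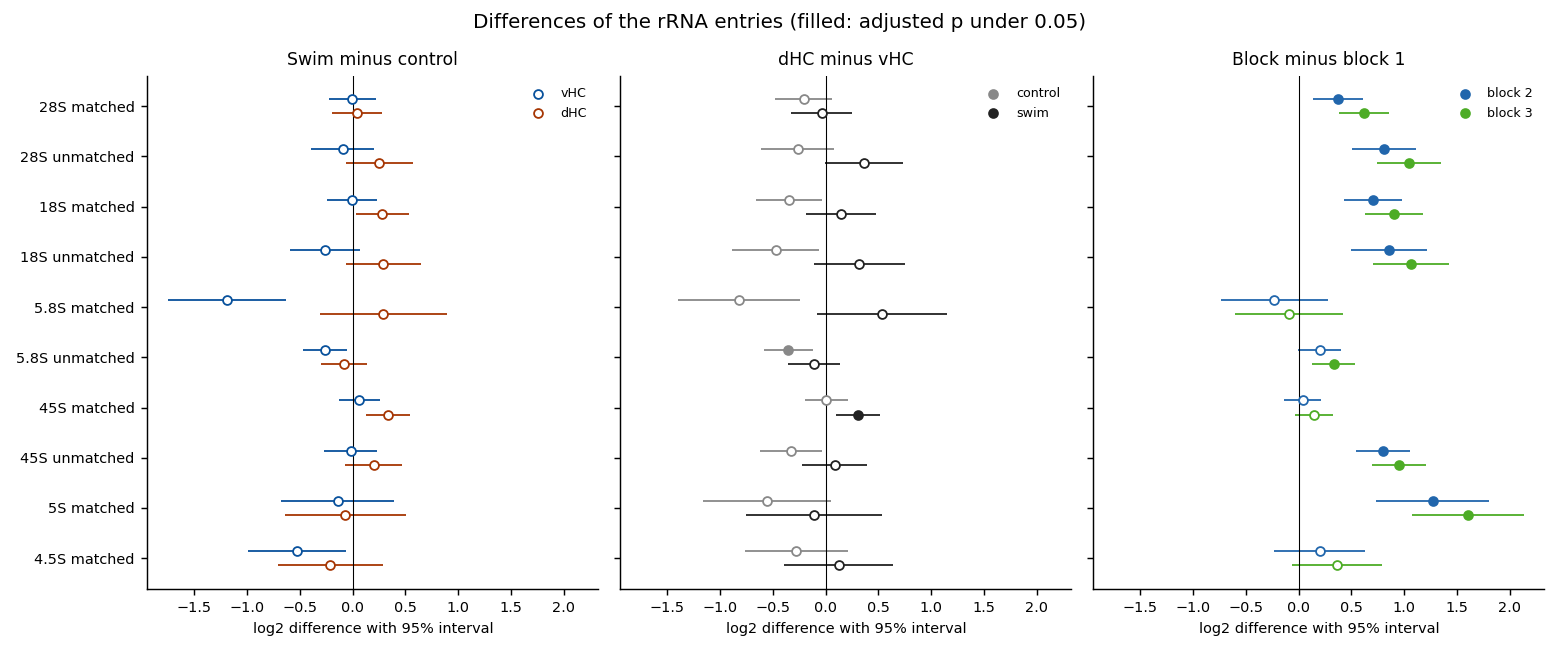
Fitted log2 differences of the 10 rRNA entries with 95% intervals, for swim minus control (left), dHC minus vHC (middle) and block 2 or 3 minus block 1 (right); filled points have an adjusted p under 0.05. No point is filled for stress and 1 in each region comparison, and 6 (block 2) and 7 (block 3) are filled against block 1.

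In control mice, 1 of the 10 rRNA entries was called between dHC and vHC, and it was lower in dHC; over all entries 15.5% were called, 10.8% as lower and 4.68% as higher in dHC. After swim, again 1 of 10 was called, higher in dHC, beside 13.7% of all entries called, 4.2% as higher and 9.53% as lower. Counting calls in either direction, neither share of the 10 entries exceeded that of the whole table. Such differences are per bulk tissue, where fewer cells of a type and less RNA per cell cannot be told apart.

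The entry called in control mice was 5.8S unmatched. Its level was 4721 to 8960 CPM with a median of 6079 in dHC (n = 6) and 6008 to 9133 CPM with a median of 7588 in vHC (n = 8), and the ranges overlapped. The log2 difference was -0.36 (SE 0.11, edgeR adjusted p = 0.0346). Within blocks 1, 2 and 3 it was -0.53, -0.36 and -0.11. The call was lost in 16 of the 26 fits that left out 1 library and in 8 of 11 other settings, with -0.19 (adjusted p = 0.487) when block 1 was left out. After swim the difference was -0.11 (SE 0.12, adjusted p = 0.636).

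The entry called after swim was 45S matched, at 186.1 to 290.7 CPM in dHC and 176.8 to 210.9 CPM in vHC (n = 6 each). The highest dHC value was in library 6 of block 1. The log2 difference was 0.31 (SE 0.10, edgeR adjusted p = 0.0466), with 0.39, 0.20 and 0.30 within blocks 1, 2 and 3. The call was lost in 19 of the 26 fits without 1 library, without dHC swim library 6 at 0.22 (adjusted p = 0.137), and in 6 of 11 other settings. In control mice it differed by 0.01 (SE 0.10, adjusted p = 0.981).

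For 5.8S matched, the log2 difference of dHC from vHC in control mice was -0.82 and missed the threshold (SE 0.28, edgeR adjusted p = 0.0682). It passed by the DESeq2 test (adjusted p = 0.0247), and by edgeR with no filter (-0.75, adjusted p = 0.00015), with 2 surrogate variables in place of block (-1.14, adjusted p = 0.0224), with neither (-0.88, adjusted p = 0.0492) and without dHC control library 26 (adjusted p = 0.0319) or vHC control library 31 (adjusted p = 0.0240). Within blocks 1, 2 and 3 the difference was -1.91, -0.45 and 0.41, and with all libraries of block 1 left out the fitted value was 0.07 (adjusted p = 0.898). The median of the 10 entries was -0.34 in control mice and 0.13 after swim, beside -0.003 and 0.03 over all entries. Of 80 whole tRNAs, 1 was called in control mice, as lower in dHC, and 1 after swim, as higher; of 68 tRNA ends, 2 and 3 were called, all as higher.

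By single entries, the clearest differences in rRNA fragments were between block 1 and the other 2. The rRNA share of counts was 4.29% ± 0.667 (SD, n = 10) in block 1, 5.41% ± 0.579 (n = 8) in block 2 and 6.33% ± 0.615 (n = 8) in block 3. In ranges this was 3.48% to 5.75%, 4.26% to 6.06% and 5.14% to 7.03%, so the ranges of all blocks overlapped. Within each of the 4 groups the mean share was higher in block 2 than in block 1, by 0.980 to 1.87 percentage points. In block 3 it was higher than in block 1, by 1.30 to 2.73 percentage points. Block 3 also exceeded block 2 in each group, by 0.193 to 1.63 percentage points. Whole tRNAs took 3.68% ± 0.753, 3.88% ± 0.762 and 4.18% ± 0.643 of the counts in blocks 1, 2 and 3, and miRNAs 92.0% ± 1.02, 90.7% ± 1.01 and 89.5% ± 0.830.

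**Figure D4:**
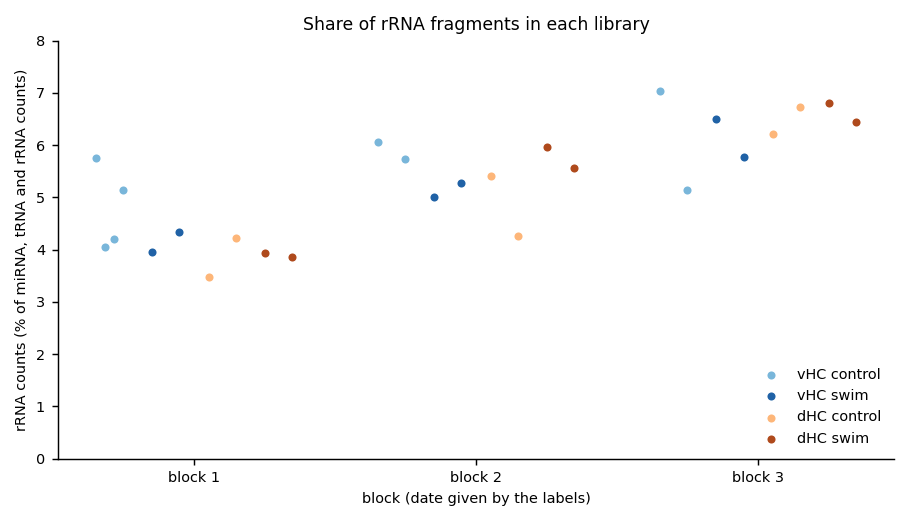
rRNA counts as a percentage of the miRNA, tRNA and rRNA counts of each library (axis from 0), by block; each point is 1 library and colours are the 4 groups. Block 1 lies between 3.48% and 5.75% and block 3 between 5.14% and 7.03%, with the groups mixed inside each block.

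Over the 3 blocks, 7 of the 10 rRNA entries were called, where 47.3% of all entries were. Against block 1, block 2 had 6 of 10 called, beside 47.2% of all entries, and all 6 were higher, beside 20.2% of all entries called as higher and 27% as lower. Block 3 had 7 of 10 called against block 1, beside 43.5%, and all 7 were higher, beside 17.4% called as higher and 26% as lower. The median log2 difference of the 10 entries was 0.54 for block 2 and 0.76 for block 3, and over all entries -0.06 for each. Between blocks 3 and 2, 0 of 10 rRNA entries and 0 of 619 entries (0%) were called by edgeR, and 0 rRNA entries had an unadjusted p under 0.05. Both comparisons share the block 1 libraries.

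The size of the difference varied by species. 5S had the largest one, with 140.8 to 357.1 CPM and a median of 222.7 in block 1 (n = 10), 307.6 to 1204 CPM and a median of 467.6 in block 2 (n = 8) and 349.2 to 1150 CPM and a median of 516.2 in block 3 (n = 8). Only the top of block 1 overlapped the others. Its log2 difference from block 1 was 1.27 for block 2 (SE 0.26, adjusted p = 0.000315) and 1.60 for block 3 (SE 0.26, adjusted p = 3.06e-05).

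The unmatched pieces of the precursor and of both long rRNAs came next. 45S unmatched had 256.6 to 568.4 CPM in block 1, 601.9 to 806.5 CPM in block 2 and 645.0 to 892.2 CPM in block 3, so block 1 did not overlap the other 2. Its log2 differences were 0.80 (SE 0.12, adjusted p = 1.56e-05) and 0.95 (SE 0.12, adjusted p = 2.03e-06). 28S unmatched differed by 0.81 and 1.04 and 18S unmatched by 0.85 and 1.06, all with an adjusted p under 0.05 by the same test.

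The matched rows of the same RNAs differed less. 18S matched had medians of 1288, 2073 and 2535 CPM in blocks 1, 2 and 3 and log2 differences of 0.71 (SE 0.13) and 0.90 (SE 0.13). 28S matched had medians of 29922, 38631 and 46222 CPM and log2 differences of 0.37 (SE 0.12, adjusted p = 0.0101) and 0.62 (SE 0.12, adjusted p = 0.000132). 5.8S unmatched was called for block 3 alone, at 0.33 (SE 0.10, adjusted p = 0.00941), and had 0.20 for block 2 (adjusted p = 0.105). For 45S matched the differences were 0.04 and 0.14 (95% interval of the latter -0.03 to 0.32), for 4.5S 0.20 and 0.37 (-0.06 to 0.79), and for 5.8S matched -0.23 and -0.09 (-0.60 to 0.42).

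Of these calls, those of 5S and of the matched and unmatched rows of 28S and 18S and of 45S unmatched stayed under the threshold in all 26 fits without 1 library and in all 9 other settings, and that of 5.8S unmatched was lost in 1 of 9. Among whole tRNAs 29 of 80 were called between blocks 2 and 1, of which 14 were higher and 15 lower, and among tRNA ends 26 of 68, of which 13 were higher and 13 lower.

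A ratio within a library does not depend on its total or scaling. The log2 ratios of 28S to 5.8S (both in the large subunit), of 28S to 18S (large against small subunit) and of 28S unmatched to 28S matched were compared in 7 contrasts each, 21 tests in all, with two-sided exact permutation tests within blocks or within groups. After Benjamini-Hochberg adjustment over the 21, 6 had an adjusted p under 0.05, and 5 of these 6 were between blocks.

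The 28S to 18S log2 ratio was 4.64 ± 0.15 (SD, n = 10) in block 1, 4.33 ± 0.11 (n = 8) in block 2 and 4.39 ± 0.17 (n = 8) in block 3. Averaged within groups, block 2 was lower than block 1 by -0.32 (exact permutation p = 0.000309, the smallest that 3240 permutations can give, adjusted p = 0.00648) and block 3 by -0.25 (exact permutation p = 0.00494, adjusted p = 0.0207). The log2 ratio of 28S to 5.8S was 2.35 ± 0.25, 2.64 ± 0.20 and 2.76 ± 0.23 in blocks 1, 2 and 3. It was higher in block 3 than in block 1 by 0.35 (exact permutation adjusted p = 0.00648), a call that was lost on matched rows alone (0.56, exact permutation adjusted p = 0.118), and for block 2 the difference of 0.23 did not pass (exact permutation adjusted p = 0.117). The ratio of unmatched to matched 28S was -3.53 ± 0.23, -3.07 ± 0.24 and -3.09 ± 0.27, higher than in block 1 by 0.47 in block 2 (exact permutation adjusted p = 0.0173) and by 0.45 in block 3 (exact permutation adjusted p = 0.0207). No ratio differed between blocks 3 and 2 by these tests, with differences of 0.12, 0.06 and -0.02 and exact permutation adjusted p of 0.359 to 0.893.

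The remaining one of the 6 was between regions. After swim, the log2 ratio of 28S unmatched to 28S matched was -3.02 ± 0.33 (SD, n = 6) in dHC and -3.42 ± 0.33 (n = 6) in vHC, a difference of 0.40 (exact permutation p = 0.00926, the smallest that 216 permutations can give, adjusted p = 0.0324). The ranges overlapped over all blocks, with -3.45 to -2.74 in dHC and -3.86 to -3.01 in vHC, but within each block both dHC swim libraries were above both vHC swim libraries. Without dHC swim library 20 or 22 the adjusted p was 0.0648, with differences of 0.38 and 0.43. In control mice the difference was -0.01 (exact permutation adjusted p = 0.937), and whether the 2 differences differ was not tested. For stress, none of the 6 tests passed. The 28S to 18S ratio after swim was lower than in control in dHC by -0.23 (exact permutation p = 0.0370, adjusted p = 0.111), and 28S to 5.8S was higher in vHC by 0.23 (exact permutation p = 0.0556, adjusted p = 0.117).

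**Figure D5:**
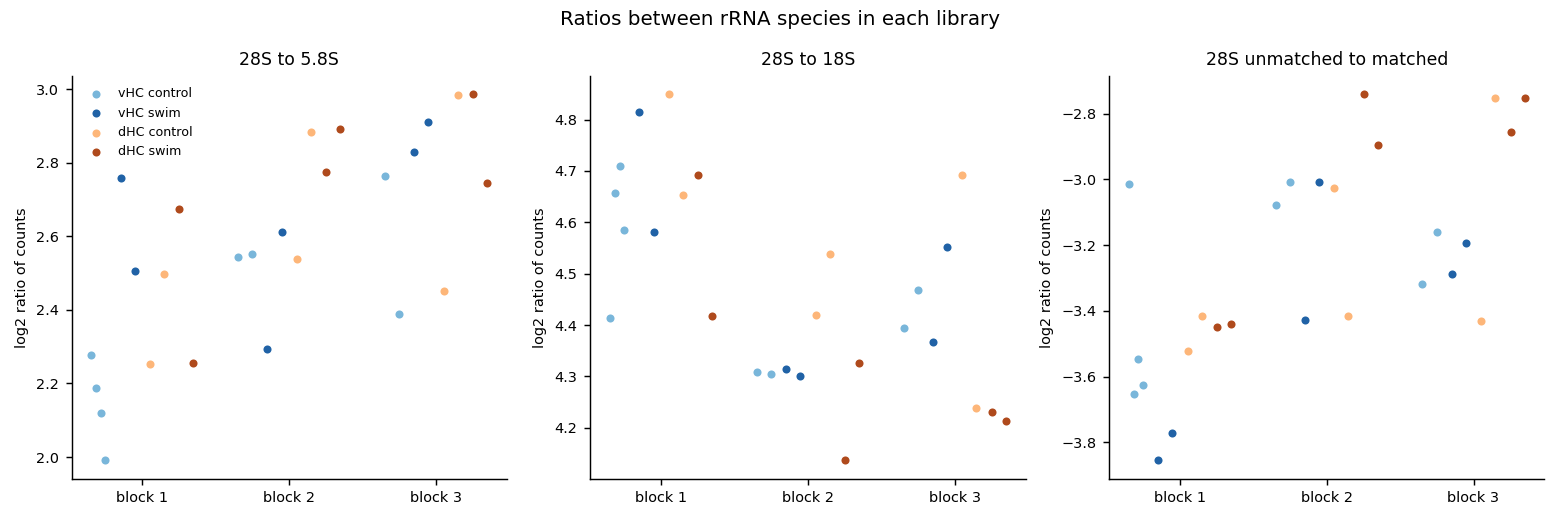
Log2 ratios of counts between rRNA species in each library, by block; each point is 1 library and colours are the 4 groups (axes do not start at 0). The 28S to 18S ratio has means of 4.64, 4.33 and 4.39 in blocks 1, 2 and 3, and the ratio of unmatched to matched 28S has means of -3.53, -3.07 and -3.09.

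By Pearson's r of log2 CPM over the 26 libraries, which share blocks and depth, the entries most like 28S matched were mir-185 (0.79), mir-320 (0.78) and the CCA end of tRNA-Met-CAT (0.78). With the means of group and block removed, r was 0.54, 0.69 and 0.59. For 18S matched they were the same tRNA-Met-CAT end (0.83, and 0.64 with means removed) and the 2 mir-344 rows, mir-344-2 and mir-344-1 (0.82 each, and 0.35 with means removed), both at a median of 298.7 CPM. For 5.8S matched they were tRNA-Leu-AAG unmatched (0.62, median 3.65 CPM), the 3′ end of tRNA-Asp-GTC (0.57, median 15.1 CPM) and tRNA-Leu-TAA (0.52, median 212.7 CPM). With the means removed, r was 0.58, 0.65 and 0.58. 28S matched itself had an r of 0.10 with 5.8S matched. 28S matched and 18S matched had an r of 0.92, and 0.88 with the means removed. These values are descriptions of the 26 libraries.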

How the data were processed

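Small RNA libraries were prepared with a Nextflex kit from total RNA. Per the labels and the study's methods, the authors trimmed reads with cutadapt, collapsed unique molecular identifiers and assigned reads to miRNA, tRNA and rRNA references with Sports against GRCm38. They deposited 1 table of estimated counts per entry (29.5% of all values, but 0 of the rRNA values, are not whole). Rounded counts of 26 libraries were used, and 0 columns were left without a sample. Library totals hold miRNA, whole tRNA and rRNA entries; tRNA ends, being part of whole tRNAs, were left out of totals. No 2 columns were identical, and replicates differed by more than sampling noise (chi-square per degree of freedom of 27.3 or more). The labels do not name the animals, so p-values measure the spread between libraries, which may in part be technical.

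Entries were kept by filterByExpr (minimum count 10, total 15) and scaled by TMM. edgeR 4.0.16 quasi-likelihood fits took 2 surrogate variables (sva 3.50.0, as in the study) beside region, stress and the interaction of both for stress, and block in their place for regions and blocks. P-values were adjusted by Benjamini-Hochberg over 619 entries (threshold 0.05). DESeq2 1.42.0, other scalings, filters and models, and leaving out each library were alternatives; leaving out block 1 was added after seeing the data. Ratios were tested by exact permutation. Scripts were tested on simulated data. All 10 rRNA entries are named; the 3 entries most like 28S, 18S and 5.8S matched were named by Pearson's r (pseudocount 0.5). Members, lists and tests were chosen with earlier results of these data known. The reference sequence came from GENCODE release 21 for mouse. Aligner settings are not given in the sources used here.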

Additional observations from a re-analysis of the deposited data

Results flagged for a closer look

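Of 56 groups of 6 or 8 values examined for a sample far from the others by Dixon's test, 2 were flagged, where chance flags about 5%. The level of 5.8S unmatched was 8960 CPM in dHC control library 26, of block 3, against 4721 to 6291 CPM in the other 5 libraries of the group. Without library 26, 2 of the 10 rRNA entries were called between regions in control mice instead of 1. The share over all entries in that fit was not recorded. The level of 4.5S matched was 501.7 CPM in vHC control library 1, of block 1, against 181.8 to 298.0 CPM in the other 7.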

How the results depend on the processing

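No paired analysis was possible because every library has a number of its own, so the groups share none, and the labels tie no dHC library to a vHC library. For stress in vHC the number of called rRNA entries was 1 by the DESeq2 test and 0 to 1 without 1 library, and 0 in every other setting run; in the other 3 stress tests it stayed at 0. Between regions in control mice it was 0 with DESeq2 size factors, with TMMwsp, with no scaling factor, with tRNA ends left out and with block 1 left out, 2 by the DESeq2 test, 2 with no filter, and 0 to 4 without 1 library (4 without vHC control library 31). After swim it was 0 with these 3 scalings, with matched and unmatched rows summed, with neither block nor surrogate variables and with block 1 left out, 3 with surrogate variables in place of block, and 0 to 1 without 1 library. Over the blocks it was 4 of 6 species with rows summed. Shares over all entries were not recorded for these other settings, so these counts have no background beside them.

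With 2 surrogate variables in place of block, differences between regions turned positive, in control mice for 18S unmatched (0.059), 28S unmatched (0.25), 45S unmatched (0.092), 18S matched (0.072), 28S matched (0.11) and 5S (0.39), and after swim for 28S matched (0.15) and 5S (0.46). With block 1 left out, 5.8S matched turned to -0.056 for stress in dHC and to 0.074 for regions in control mice, and 4.5S to 0.16 there. None of these was called in either fit. The cause was not tested.

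On matched rows alone, the 28S to 5.8S log2 ratio turned to -0.27 for stress in dHC and to -0.62 for dHC against vHC after swim, both with no call, and for block 3 against block 1 it was 0.56 (exact permutation adjusted p = 0.118). With labels exchanged over all libraries, the difference in unmatched to matched 28S after swim was 0.40 (exact permutation adjusted p = 0.188).

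Without 1 library, the log2 ratio differences that gained or lost a call ranged as follows. Unmatched to matched 28S between regions after swim ranged from 0.332 to 0.473. The 28S to 18S ratio ranged from -0.305 to -0.154 for stress in dHC (adjusted p under 0.05 without dHC control library 32 or dHC swim library 6), from 0.0467 to 0.198 between regions in control mice (called without dHC control library 32) and from -0.311 to -0.197 for block 3 against block 1 (lost without dHC control library 8). The 28S to 5.8S ratio ranged from 0.167 to 0.292 for stress in vHC and from 0.180 to 0.284 for block 2 against block 1, both called without vHC swim library 19.

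The rRNA share of block 3 exceeded that of block 1 by 1.30 points within vHC control and that of block 2 by 1.63 within dHC control and 0.193 within vHC control. Of 2930 alternatives for single entries, 2849 kept the side of the threshold with no sign change by more than 1 SE of the main fit. In 11 others the sign changed by more than that, with no call in either fit. A call was lost in 50 and gained in 20. In all, the sign changed with no call in 120 alternatives, these 11 included, and 81 of the 120 left out 1 library. The lowest counts were those of the 18S unmatched row, at 13 to 277 per library.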
